A study of Mus musculus with 3 samples.

Results

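The interleukin-10 (IL-10), interleukin-6 (IL-6) and interleukin-12 (IL-12) families were examined through 10 of the 55536 annotated genes measured. They were Il10, Il6, the 5 IL-12 family chain genes Il12a, Il12b, Il23a, Ebi3 and Il27, and the receptor chain genes Il10ra, Il10rb and Il6ra. They were selected by symbol, and each symbol matched 1 gene. The cells were macrophages derived in culture from bone marrow (BMDM) of strain C57BL/6J, a primary cell model, exposed for 30 min to Lipid A at 100 ng/ml. Lipid A is the part of bacterial lipopolysaccharide that Toll-like receptor 4 recognises. Ribosomal RNA-depleted RNA of the cytosolic fraction was sequenced in 3 libraries of this single group, replicates 1, 2 and 3. All 3 carry the same donor record although they are labelled biological replicates, so the errors are the spread between these libraries and may be partly technical. Sex and age were not collected. Since unstimulated cells were not analysed here, each value is a level at a single time and not a change.

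IL-10 is a secreted cytokine that restrains macrophage activation, and it signals through a receptor of IL-10RA and IL-10RB chains with JAK kinases and STAT3. IL-6 binds its own receptor chain, IL-6RA, and the shared signalling chain gp130, encoded by Il6st. The IL-12 family is built from chains secreted as pairs: Il12a with Il12b gives IL-12, Il23a with Il12b gives IL-23, and Il27 with Ebi3 gives IL-27. Transcripts of many cytokines carry AU-rich elements, in which the pentamer AUUUA recurs, that recruit decay factors such as the protein encoded by Zfp36.

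The cytokine chains differed in this pentamer, which is shown first because Il10 and Ebi3, the 2 abundant cytokine genes in the levels below, differed in its count. In the 3′ untranslated region of the leading coding transcript (GENCODE M21, given in DNA letters as ATTTA), Il10, Il6, Il12a, Il12b and Il23a each held 6 pentamers, Il27 held 5 and Ebi3 held 1. For Il12a, which had 0 counts, no transcript led and Il12a-201 was taken. Among the receptor genes, Il10rb held 4, Il10ra 3 and Il6ra 1. These regions differ in length, from 245 bases in Ebi3 and 706 in Il10 to 1693 in Il10ra and 1837 in Il6ra. Per kilobase, Ebi3 held 4.08 pentamers, fewer than Il10 at 8.50 but more than Il10ra at 1.77 and Il6ra at 0.544. Of 9249 genes that averaged 1 or more in TPM, the length-scaled abundance unit explained below, and had a 3′ untranslated region, 14.5% held 6 or more, and the medians were 1 pentamer and 1.26 per kilobase. One 30-base window per transcript, with the pentamers in capitals, reads as follows.
Il10, bases 104 to 133 of the 3′ untranslated region: cctcgtttgtacctctctccgaaatATTTA
Il6, bases 129 to 158: tttaattatttttaATTTAttgataATTTA
Il12b, bases 237 to 266: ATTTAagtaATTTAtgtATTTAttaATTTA
Il27, bases 176 to 205: ccagatATTTAtttcttggatATTTATTTA
Ebi3, bases 182 to 211: ggtgcggggctttgtgaactttgtgATTTA
The windows of Il12b and Il27 hold 4 and 3 pentamers, those of Il10 and Ebi3 hold 1 each. The genes below 1 TPM in the levels below, Il6, Il12a, Il12b, Il23a and Il27, held 5 or 6 pentamers, at 7.53 to 17.5 per kilobase. Of the genes above 10 TPM, Il10 held 6. The others, Il10rb, Il10ra, Ebi3 and Il6ra, held 1 to 4, at 0.544 to 5.63 per kilobase. The longer match TTATTTATT did not follow this split. Il10ra held 3, Il27 held 2, Il12a and Il23a held 1 each, and the other genes, Il6 and Il12b among them, held 0. Of the 9249 genes, 6.90% held it. How pentamers relate to level was not tested. These matches are descriptions of sequence, and binding by decay factors was not measured.

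The RefSeq promoter table (GRCm38.p6) had entries for Il6, Il12a, Il12b, Ebi3 and Il6ra. Among them, only the Il6 window held any of the 5 motifs searched on both strands of 300 bases, from 250 before to 50 after the start site. The letters were GGG and TTTCC with any 2 bases between them for kappaB, TGANTCA for AP-1, TTGNNCAAT for C/EBP, GACGTCA for a cyclic AMP response element (CRE) and TATAAA for a TATA box, and they were chosen after this promoter had been seen. The 250 bases before the Il6 start, chr5:30012864-30013113 on the plus strand, are shown because they carry every match, in capitals.
Il6: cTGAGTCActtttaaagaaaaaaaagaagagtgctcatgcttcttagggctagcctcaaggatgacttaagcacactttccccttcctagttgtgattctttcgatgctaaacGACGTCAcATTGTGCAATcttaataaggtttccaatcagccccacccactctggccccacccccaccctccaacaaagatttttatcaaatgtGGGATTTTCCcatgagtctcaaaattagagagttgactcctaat
The AP-1 match lies at −249 to −243, the CRE match at −137 to −131 and the kappaB match at −44 to −35. The C/EBP match at −128 to −120 overlaps a match on the other strand at −129 to −121. No TATAAA was found in the window. Of 32851 promoters of that length, 1.63% held the kappaB, 7.81% the AP-1, 2.52% the C/EBP, 3.21% the CRE and 13.6% the TATA letters. Only exact letters were counted, and they were chosen with the Il6 promoter in view. The lack of matches in Il12a, Il12b, Ebi3 and Il6ra thus does not show that such elements are absent. A relation of these motifs to level was not tested.

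Il10 was the most abundant of the 7 cytokine genes and Il6 was below 1 TPM in every library. Il10 (ENSMUSG00000016529.5, chr1:131019845-131024974, plus strand, mm10) had 42.15, 44.95 and 29.43 TPM in replicates 1, 2 and 3, a mean of 38.8 ± 8.27 TPM (SD, n = 3, here and below). TPM divides reads by transcript length and scales each library to the same total. Only 4.88% of 22015 nuclear protein-coding genes had a higher mean TPM. Il19, Il20 and Il24, relatives of Il10 that lie beside it on chromosome 1, had 0 counts in every library.

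Il6 (ENSMUSG00000025746.11, chr5:30013114-30019981, plus strand) had 0.48, 0.31 and 0.15 TPM, a mean of 0.313 ± 0.165. These values rest on 19, 21 and 10 expected counts, the estimated numbers of reads per gene. Exact Poisson 95% intervals were 11.4 to 29.7 counts in replicate 1, 13.0 to 32.1 in replicate 2 and 4.80 to 18.4 in replicate 3. Such intervals cover counting error alone, because no molecular identifiers mark which reads come from separate molecules. In TPM, Il10 was 87.8-fold, 145-fold and 196-fold above Il6 in replicates 1, 2 and 3. On the log2(TPM + 0.1) scale the difference was 6.62 ± 0.38, positive in 3 of 3 libraries. An exact sign-flip permutation test, two-sided, returned p = 0.25, adjusted to 0.3 over the 6 gene pairs tested, and 3 libraries allow no smaller p than 0.25.

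**Figure D1:**
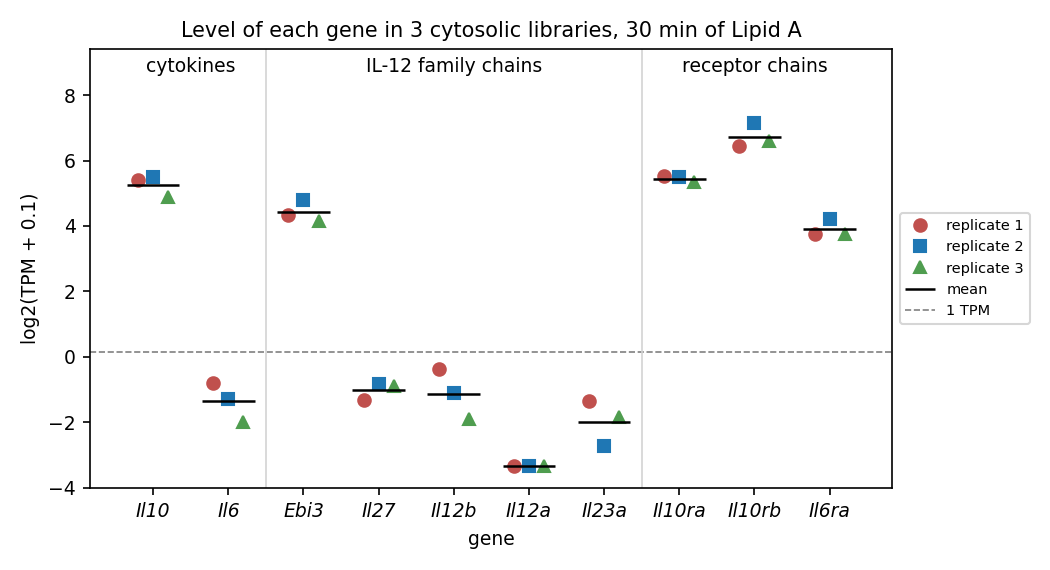
Level of each of the 10 genes as log2(TPM + 0.1) on the vertical axis, 1 point per library and a line at the mean of the 3 log2 values, with genes grouped by role along the horizontal axis and a dashed line at 1 TPM. Il10, Ebi3 and the receptor chain genes lie above the line in every library, and the other 5 genes lie below it.

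Of the IL-12 family chains, Ebi3 alone exceeded 1 TPM. Ebi3 (ENSMUSG00000003206.7, chr17:55952640-55957022, plus strand) had 20.03, 27.93 and 17.80 TPM, a mean of 21.9 ± 5.32. Its partner Il27, the other chain of IL-27 (ENSMUSG00000044701.5, chr7:126589010-126594941, minus strand), had 0.30, 0.46 and 0.44 TPM, a mean of 0.400 ± 0.0872, from 11, 27 and 23 counts. Ebi3 was thus far above Il27 in every library, by 66.8-fold, 60.7-fold and 40.5-fold in replicates 1, 2 and 3. The difference was 5.45 ± 0.35 in log2(TPM + 0.1), positive in 3 of 3 libraries (exact sign-flip permutation test, p = 0.25, adjusted p = 0.3, n = 3). Ebi3 shares 2252 bases with Gm16712, an antisense gene with 86.34, 78.38 and 89.23 counts, and 103 bases of Il27 overlap Apobr on the opposite strand, with 2149 to 6617 counts. Whether counting used the strand is not given in the sources used here, so reads in these stretches cannot be told apart with certainty.

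Il12b, the chain shared by IL-12 and IL-23, was detected while its IL-12 partner was not. Il12b (ENSMUSG00000004296.14, chr11:44400063-44414033, plus strand) had 0.67, 0.37 and 0.17 TPM, a mean of 0.403 ± 0.252, from 51, 45 and 18 counts. Il12a (ENSMUSG00000027776.12, chr3:68690644-68698547, plus strand) had 0 counts in each library. A count of 0 allows up to 3 counts, which is 0.0737, 0.0465 and 0.0530 TPM of Il12a in replicates 1, 2 and 3. With Il12b taken as measured, it was at least 9.09-fold, 7.95-fold and 3.21-fold higher than these limits of Il12a. The upper credibility bounds that the authors deposited for Il12a were wider. In replicate 3 the bound was 0.222 TPM, above the 0.17 TPM of Il12b, so in that library the 2 genes were not clearly separated. Il23a, which encodes the chain specific to IL-23 (ENSMUSG00000025383.2, chr10:128296139-128298752, minus strand), had 0.29, 0.05 and 0.18 TPM, a mean of 0.173 ± 0.120, from 16, 4 and 14 counts. Il12b was higher than Il23a in replicates 1 and 2 but not in replicate 3. Their difference of 0.86 ± 0.86 in log2(TPM + 0.1) was no larger than its spread (exact sign-flip permutation test, p = 0.5, adjusted p = 0.5, n = 3), and in the second transcript table it was -0.11. Il10 stood above Il12b by 6.38 ± 0.53 in log2(TPM + 0.1), in 3 of 3 libraries (same exact test, p = 0.25, adjusted p = 0.3, n = 3).

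Added over the 7 cytokine genes, the summed level was 63.92, 74.07 and 48.17 TPM in replicates 1, 2 and 3. Il10 and Ebi3 made up 97.3%, 98.4% and 98.0% of it. The 3 receptor chain genes summed to 147, 204 and 151 TPM, more than the cytokine genes in every library.

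All 3 receptor chain genes were above 10 TPM. Il10ra (ENSMUSG00000032089.16, chr9:45253837-45269149, minus strand), the chain specific to IL-10, had 46.00, 44.98 and 40.18 TPM, a mean of 43.7 ± 3.11. Il10rb (ENSMUSG00000022969.13, chr16:91406164-91425834, plus strand), the chain that IL-10 shares with related cytokines, was the highest of the 10 genes at 87.78, 140.86 and 96.86 TPM, a mean of 108.5 ± 28.4. Il10ra was below Il10rb in every library, at 0.524, 0.319 and 0.415 of its TPM. The difference was -1.28 ± 0.36 in log2(TPM + 0.1), negative in 3 of 3 libraries (exact sign-flip permutation test, p = 0.25, adjusted p = 0.3, n = 3). In counts scaled by the library total and a TMM factor, which do not divide by length, it was -0.27. Its direction turned in replicate 1 (exact sign-flip permutation test, p = 0.5, n = 3).

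Of the IL-6 receptor, the signalling chain gene Il6st had 22.72, 32.48 and 28.39 TPM. Il6ra, the gene of the IL-6-binding chain (ENSMUSG00000027947.11, chr3:89864059-89913196, minus strand), had 13.33, 18.26 and 13.49 TPM, a mean of 15.0 ± 2.80. RNA of both IL-6 receptor chains was thus present in each library in which Il6 itself was below 1 TPM. Il6st lay above Il6ra by 0.89 ± 0.16 in log2(TPM + 0.1), in 3 of 3 libraries (exact sign-flip permutation test, p = 0.25, adjusted p = 0.3, n = 3). Counts assigned to overlapping genes were few. Gm21970, which shares 13288 bases with Il10rb on the same strand, had at most 2.70 counts in a library. The overlapping genes of Il10ra and Il6ra had at most 16 and 3.07. The estimator divides shared reads, so these counts do not show where reads in the shared stretches came from.

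**Figure D2:**
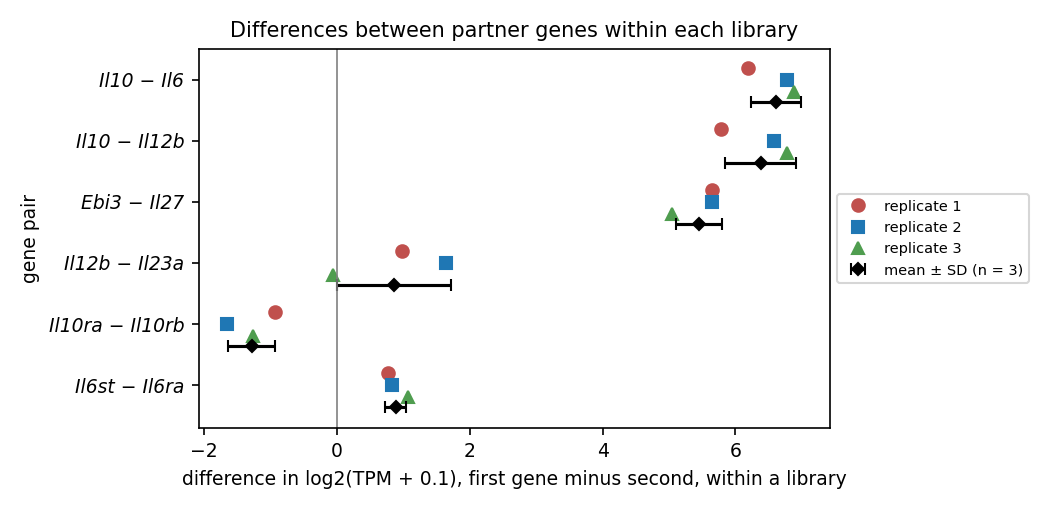
Difference in log2(TPM + 0.1) between the genes of 6 pairs within each library on the horizontal axis, first gene minus second, with 1 point per library and the mean ± SD (n = 3) below the points of each pair. Il10 minus Il6, Il10 minus Il12b and Ebi3 minus Il27 lie between 5.05 and 6.88, Il10ra minus Il10rb is negative in every library, and Il12b minus Il23a falls on both sides of 0.

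By mean TPM the order was Il10rb, Il10ra, Il10, Ebi3, Il6ra, Il12b, Il27, Il6, Il23a and Il12a. Il10ra and Il10 had overlapping ranges, and their difference of 4.88 TPM was smaller than the SD of Il10, although Il10ra was higher in 3 of 3 libraries. Ebi3 and Il6ra also overlapped in range, with Ebi3 higher in 3 of 3 libraries. Among the 4 detected genes below 1 TPM, the differences between neighbours in the order were smaller than their spread. In all, 5 of the 10 genes averaged at least 1 TPM, against 42.7% of nuclear protein-coding genes, and the same 5 had 10 TPM or more, against 18.0%. The sizes depended on the table and the scale. In the second transcript table, made by another quantifier, these 5 had 49.4, 17.7, 16.6, 9.57 and 7.94 TPM in the same order, and the other 5 were again below 1 TPM. When TPM was rescaled to nuclear protein-coding genes only, Il10rb had 401 ± 8.49, Il10ra 167 ± 37.6, Il10 147 ± 36.6, Ebi3 81.4 ± 8.24 and Il6ra 56.1 ± 3.33. On that scale 8 of the 10 genes averaged 1 or more, against 48.5% of nuclear protein-coding genes, Il27, Il12b at 1.59 ± 1.23 and Il6 at 1.22 ± 0.815 being added. Without replicate 1, Il12b had 0.888 and Il6 0.760.

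Other genes of the same pathways were set beside these 10. Of 14 further ligands of these families, only Osm reached 1 TPM and 8 had 0 counts in all libraries. Osm, encoding oncostatin M, an IL-6 family cytokine that signals through gp130, had 24.26, 44.22 and 48.96 TPM, a mean of 39.1 ± 13.1. This is a level like that of Il10, and the ranges of Osm and Il10 overlapped. The next ligand, Cntf, encoding ciliary neurotrophic factor, had 0.140 ± 0.0400 TPM.

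Of 15 further receptor chains, 4 had 1 TPM or more. Il6st had a mean of 27.9 ± 4.90 TPM and Il11ra1, encoding the IL-11-binding chain, 27.7 ± 5.90 TPM, a value that is uncertain because mice carry near-identical copies of that gene. Il12rb2, a chain of the IL-12 receptor, had 5.53, 10.08 and 5.42 TPM, and Lifr, the leukaemia inhibitory factor receptor gene, had 1.66 ± 0.185 TPM. Of the signalling genes, 5 of 6 kinase and STAT genes had 1 TPM or more, among them the kinase gene Jak1 at 38.0 ± 9.47 TPM. Of 7 feedback genes, 4 did so, led by Socs3, an inhibitor of gp130 signalling, at 74.98, 68.80 and 38.87 TPM and by the phosphatase gene Ptpn6 at 46.9 ± 15.5 TPM.

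Transcription factor genes linked to cytokine promoters were at 1 TPM or more in 14 of 15 cases. Atf3, encoding a stress-induced factor of the ATF family, had 177 ± 50.9 TPM, and Nfkbiz, encoding a nuclear IkB protein known as a co-activator of Il6 and Il12b, had 141, 123.21 and 86.29 TPM. Nfkbiz RNA was thus abundant in the same libraries in which Il6 and Il12b were below 1 TPM, and a relation between them was not tested. All 9 genes of mRNA decay and stabilising factors were at 1 TPM or more, with Zfp36 at 558 ± 26.5 TPM and Ybx1, encoding an RNA-binding protein, at 204 ± 94.5 TPM. Over the 6 lists, 37 of 66 genes had 1 TPM or more and the median was 6.34 TPM, against 0.177 TPM over all nuclear protein-coding genes and 7.72 TPM over the 10 genes described here.

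**Figure D3:**
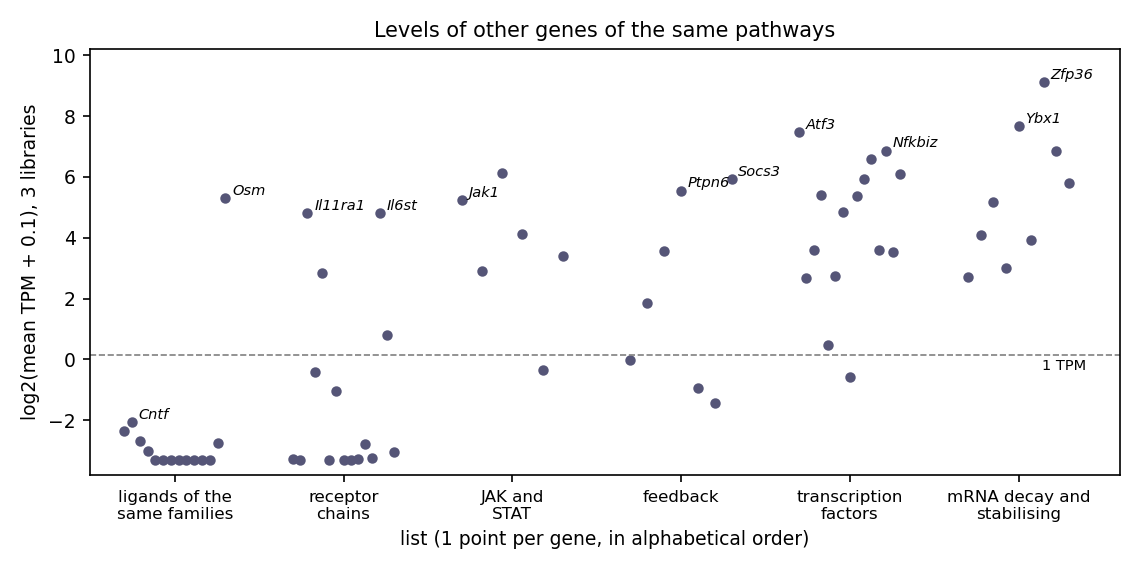
Mean level of 66 other genes of these pathways as log2(mean TPM + 0.1) on the vertical axis, 1 point per gene in 6 lists along the horizontal axis, with the genes that the text names among the highest of each list labelled and a dashed line at 1 TPM. Osm is the only one of 14 ligands above the line, whereas all 9 decay and stabilising factor genes lie above it.

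The libraries had 23403552 to 50435201 expected counts, and replicate 2 was the deepest. Nuclear protein-coding genes took 22.3%, 34.4% and 24.3% of the TPM in replicates 1, 2 and 3, so libraries were compared not in TPM but in CPM, counts scaled by the library total and a TMM factor. All 8 macrophage markers had 10 TPM or more, led by Cd68 at 742 ± 278 TPM. The 8 stromal markers summed to 26.09, 0.06 and 0.16 TPM in replicates 1, 2 and 3, and replicate 1 was highest for all 8. Col1a1 had 2375, 1 and 14 counts, Col1a2 1565, 5 and 16, Col3a1 1300, 0 and 0, and Postn 379, 3 and 3. Summed TPM per library was 0.03 to 0.08 for 6 T and NK cell markers and at most 0.06 for 4 B cell markers, led by Trac and Cd79a at 0.0200 and 0.0267 TPM. It was 11.5 to 43.2 for 5 neutrophil markers, mostly S100a9 and S100a8. In replicates 1, 2 and 3, S100a8 had 54, 305 and 167 counts, Mpo 8, 23 and 32, Elane 7, 5 and 9, and Ly6g 0, 0 and 1. Summed TPM per library was 0.92 to 1.15 for 5 dendritic cell markers, led by Ccr7. For 4 mast cell and basophil markers, led by Cpa3, this sum was 0.06 to 0.22. In bulk RNA, fewer cells of a type and less RNA per cell cannot be told apart.

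Most of the 10 genes varied between the libraries by more than counting error, and most were highest in replicate 1. Of the 9 genes with enough counts to test, 8 passed a chi-square test for spread beyond Poisson counting noise, with Benjamini-Hochberg adjustment over 13237 genes, against 66.8% of all genes tested. Of the 9 genes, 7 passed and had their highest CPM in replicate 1, against 19.6% of all genes tested, and 6 did so on library totals or in the second transcript table; 27.0% passed and were highest in replicate 2, like Il10rb, and 20.3% in replicate 3, like none of the 10. Il12b was at 2.26, 0.827 and 0.522 CPM in replicates 1, 2 and 3 (adjusted p = 9.09e-10). Il6 was at 0.843, 0.386 and 0.290 CPM (adjusted p = 0.0104). Replicate 1 was thus highest for both, by 4.33-fold and 2.91-fold over the lowest library. Without replicate 1, Il12b had an adjusted p of 0.150 and Il6 of 0.549, so neither call held.

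Il23a had 0.710, 0.0735 and 0.406 CPM (adjusted p = 2.82e-05), the lowest value being 4 counts in replicate 2, and the call was lost without replicate 2 (adjusted p = 0.244) and in the second transcript table (adjusted p = 0.0928). Without replicate 1 its mean count was too low to test. Il10 was at 94.5, 66.4 and 59.9 CPM (adjusted p = 1.53e-54), and Il10ra at 310, 202 and 244 CPM (adjusted p = 3.21e-173). The ligand and its specific receptor chain were thus both highest in replicate 1, within 1.58-fold and 1.54-fold of the lowest library, and both passed the test whichever library was left out. The stromal transcripts given above were found in this same library, and their part in these results was not tested.

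Il10rb, Il6ra and Ebi3 were the steadiest of the genes that passed. Il10rb had 294, 311 and 292 CPM (adjusted p = 3.73e-07), Il6ra 149, 131 and 134 CPM (adjusted p = 5.60e-09) and Ebi3 38.5, 35.2 and 31.1 CPM (adjusted p = 3.22e-05). The highest library was within 1.07-fold, 1.14-fold and 1.24-fold of the lowest for Il10rb, Il6ra and Ebi3. Each of these calls was lost when 1 library was left out, replicate 2 for Il10rb (adjusted p = 0.777), replicate 1 for Il6ra (adjusted p = 0.368) and replicate 3 for Ebi3 (adjusted p = 0.0605). Il27, at 0.488, 0.496 and 0.668 CPM, was the tested gene that did not pass (adjusted p = 0.572), which at 11 to 27 counts does not show that it was steady.

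Tagwise biological coefficients of variation from edgeR gave the same ordering except for Il27, which they placed above Il10, with 11.2% for Il10rb and for Il6ra, 13.0% for Ebi3, 17.1% for Il10ra and 18.0% for Il10. They were 43.5% for Il27, 53.4% for Il6, 59.8% for Il12b and 72.3% for Il23a, against a median of 17.3% over all genes tested. Pathway and marker list genes with at most 60 counts in a library that were tested but did not pass had 38.6% to 49.6%. At low counts the median over all genes is therefore not a like comparison. Osm, the abundant ligand outside the 10, was lowest in replicate 1 and highest in replicate 3, with 99.6, 120 and 182 CPM (adjusted p = 6.61e-186).

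**Figure D4:**
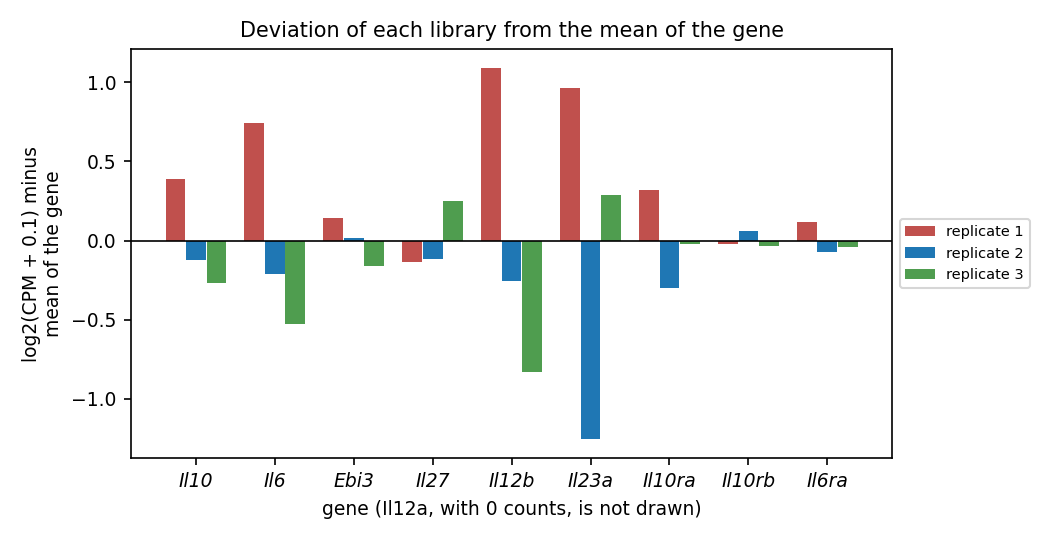
Deviation of each library from the mean of the gene, in log2(CPM + 0.1) on the vertical axis, for the 9 genes with counts, 1 bar per library. Replicate 1 is the highest bar for 7 genes, by up to 1.09 for Il12b, replicate 2 is highest for Il10rb by 0.06, and replicate 3 for Il27 by 0.25.

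The transcripts behind these levels were compared between the 2 transcript tables that were deposited for each library. Il10, Ebi3 and Il27 have 1 annotated transcript each. For 5 of the 6 detected genes with several transcripts, the same transcript led in both tables by its mean TPM over the 3 libraries. Il10ra-201, the coding transcript, held 95.1%, 93.6% and 89.9% of the Il10ra TPM in the first table and 94.8%, 93.1% and 90.3% in the second. Its nonsense-mediated decay transcript Il10ra-203 held 4.4%, 6.0% and 9.7% in the first table and 4.3%, 5.2% and 8.7% in the second, so replicate 3 was highest in both. Il10rb-201 held 94.9% to 97.4% in the first table and 83.9% to 93.7% in the second.

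The 2 coding transcripts of Il6ra, of 3343 and 8639 bases, have nearly equal coding lengths of 1380 and 1377 bases. The shorter, Il6ra-201, led in every library, with 56.5%, 60.5% and 58.2% of the TPM in the first table and 72.6%, 75.5% and 74.7% in the second. The tables differed by more than the spread between libraries, so that the lead of Il6ra-201 held in both but its size did not.

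The low genes were less certain. The Il6 transcript that led by mean TPM held 36.2%, 100% and 33.3% of the Il6 TPM in the first table, which divides 10 to 21 reads among 4 coding transcripts, and other transcripts led in replicates 1 and 3. Il12b-201 held all of the Il12b TPM in the first table and 64.6% to 100% in the second. For Il23a the tables disagreed: the coding Il23a-201 held 89.7%, 100% and 84.2% in the first table and 74.0%, 7.3% and 25.8% in the second. The rest was Il23a-202, a transcript with a retained intron, which was given 0 counts in replicate 2 by the first table and 85.2 by the second. The coding share of Il23a therefore rests on the table used. The counts of Il23a-201 itself were similar in both. They were 13.8, 4 and 11.5 in replicates 1, 2 and 3 in the first table and 16.2, 5.07 and 10.3 in the second.

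**Figure D5:**
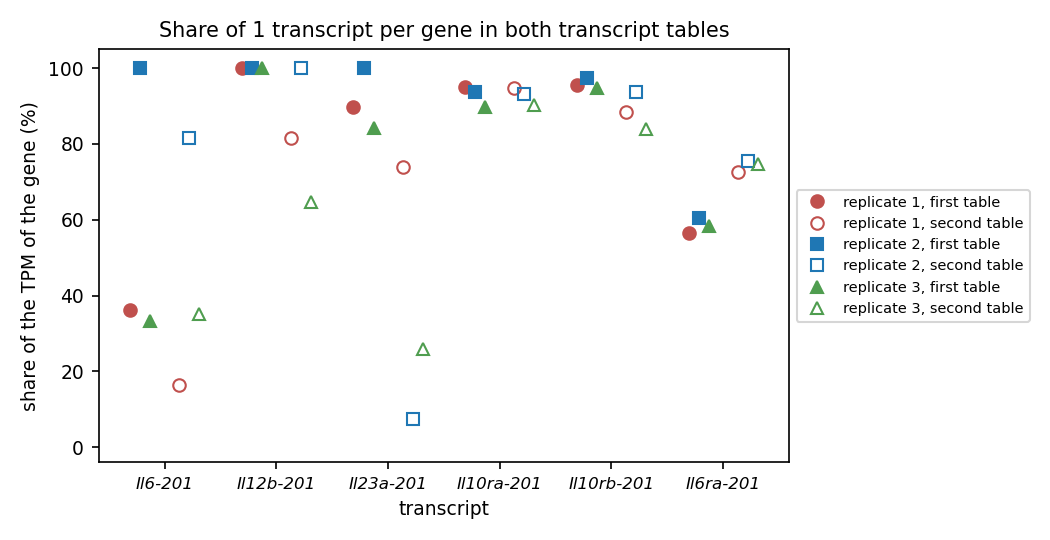
Share of the TPM of the gene held by 1 coding transcript of each of 6 genes, in percent on the vertical axis, with filled points for the first transcript table and open points for the second, 1 point per library. Il10ra-201 and Il10rb-201 stay above 83% in both tables, whereas Il23a-201 spans 7.3% to 100%.

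The nuclear protein-coding genes most like Il10 across the 3 libraries, by the root mean square difference in log2(TPM + 0.1), were Cxcr4 at 0.08, Igsf6 at 0.09 and Sod2 at 0.10. Cxcr4 encodes a chemokine receptor, Igsf6 an immunoglobulin superfamily member and Sod2 the mitochondrial superoxide dismutase. Cxcr4 had 40.08, 45.82 and 31.77 TPM in replicates 1, 2 and 3, the same order of libraries as Il10 in TPM. In CPM the order of Il10 was another, at 94.5, 66.4 and 59.9. Closest to Il10ra were the kinase genes Mapkapk2 at 0.04 and Lyn at 0.10, and Znfx1, encoding a zinc-finger protein, at 0.11. Closest to Il6 were A1cf at 0.15, Enpp4 at 0.16 and Fgfr1 at 0.23, each below 1 TPM in every library. With 3 libraries, this measure mainly reflects a like level.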

How the data were processed

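Cytosolic RNA of 3 libraries of 1 group was measured. The files use mm10 and GENCODE M21, per the deposited readme files. The sources used here do not name the aligner, the quantifiers or the strand setting. Expected counts, as deposited, estimate the reads of each gene or transcript, with shared reads divided by the estimator that the authors ran. TPM, as deposited, divides by effective length and gives each library the same total over all rows. The deposited percent column gives the share of a transcript in its gene, and shares were recomputed here from transcript TPM. The first transcript table has the layout of the gene table, and the second comes from another quantifier, whose gene values were summed over transcripts. Of 81881 gene table rows, 55536 matched the annotation. The others, with 0.0969% to 0.462% of the counts, were left out. Deposited posterior standard deviations of the counts of the 10 genes were at most 0.0646% of the count.

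The 10 genes, the pathway and marker lists and the tests were chosen with earlier results of these data known. The text names the 10 genes, the 2 highest genes of each pathway list, every ligand or receptor chain at 1 TPM or more, the highest gene of each marker list, stromal markers with 100 counts or more in a library, the 3 genes most like Il10, Il6 and Il10ra, and genes that overlap the 10. Il19, Il20 and Il24 were added as neighbours of Il10, and S100a8, Mpo, Elane and Ly6g to complete the neutrophil list, after their values were seen. The values of 1 gene of the rule are not reported here.

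Rounded expected counts of genes with a mean count of at least 10 were compared with Poisson sampling by the chi-square index of dispersion, on TMM-scaled library sizes, and p-values were adjusted by Benjamini-Hochberg (0.05). TMM factors and tagwise dispersions came from edgeR 4.0.16 in R 4.3.3. Pairs of genes were compared within libraries in log2(TPM + 0.1), which understates folds of low genes, by exact sign-flip permutation, two-sided. Alternatives were DESeq2 1.42.0 size factors, library totals, no count filter, other pseudocounts, CPM, posterior mean TPM, the second transcript table, TPM relative to nuclear protein-coding genes and leaving out each library. The remaining steps ran in Python 3.11.15 with scipy 1.17.1, numpy 2.4.6, matplotlib 3.10.9 and pandas 2.3.3.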

Additional observations from a re-analysis of the deposited data

How the results depend on the processing

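Leaving out 1 library gave 4 to 7 genes of the 10 past the test between libraries, against 8 of 9 tested with all 3. They were 4 of 8 tested without replicate 1, against 55.4% of all genes tested, 6 of 9 without replicate 2, against 33.1%, and 7 of 9 without replicate 3, against 51.2%. It gave 4334 to 7395 genes in all, against 8842, the 4334 being without replicate 2, in tests of fewer libraries and counts. Relative to nuclear protein-coding genes only, 8 of the 10 genes had 1 TPM or more, against 5, with Il6, Il12b and Il27 added. Without replicate 1, Il6 and Il12b were again below 1 on that scale. The difference Il12b minus Il23a was -0.11 in the second transcript table, against 0.86. There Il23a included Il23a-202, a transcript with a retained intron, at 0.0373, 0.429 and 0.0878 TPM in replicates 1, 2 and 3. The coding Il23a-201 had 0.106, 0.0340 and 0.0305 TPM, below Il12b at 0.350, 0.249 and 0.0529. Why the tables differ was not tested. The other alternatives left the counts within 1.5 times and the pairs in their direction. DESeq2 size factors gave 8955 genes, and library totals 9672. Of 60 alternative levels of single genes, 17 moved by more than the spread, 9 of them under the rescaling and 7 in the second transcript table. Depth limits Il6, Il12a, Il12b, Il23a and Il27, each with at most 51 counts in a library.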
